A study of Mus musculus with 12 samples.

Results

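The data described here are the V and J gene segments (TRBV and TRBJ) carried by the T cell receptor beta chains of T cells sorted from mouse tumours. Members were the TRB contigs, the assembled beta chain transcripts, whose library and cell barcode matched a cell of the authors' cell table. There were 25539 such TRB chains, out of 26617 TRB contigs and 52893 receptor contigs in all, and they came from 24511 of 30749 cells. They carried 22 V labels and 12 J segments, and all of these segments were members. Usage was counted per cell, as a share of a library's TRB chains, and per clone. A clone was the set of chains of 1 library with the same V segment and the same CDR3 nucleotides, where CDR3 is the stretch across the joint of V, D and J; this gave 4745 clones.

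The tumours grew subcutaneously in C57Bl/6 mice from MCA205, a fibrosarcoma cell line. In the first group, 3 mice were given an antibody that neutralises acyl-CoA-binding protein (ACBP, also called DBI), and in the other group 3 mice were given an IgG2a isotype antibody; both were dosed at 2.5 mg/kg every 2 days, beginning 2 days ahead of chemotherapy and ending 1 day ahead of immunotherapy. All 6 mice had 300000 tumour cells injected, oxaliplatin at 10 mg/kg on day 8, and 200 µg of anti-PD1 another 8 days on, and the tumours were taken 2 days after that. CD4+ and CD8+ T cells were sorted and mixed in equal numbers, 10000 cells were loaded per library, and each mouse gave 1 expression library and 1 receptor library. The comparison asks whether the antibody to ACBP changed which receptor segments the tumour T cells used.

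A beta chain gene is built in the thymus when the RAG recombinase joins a V, a D and a J segment, with bases trimmed and added at each joint. The V segment encodes the CDR1 and CDR2 loops, which mostly touch the MHC molecule, while the joint encodes CDR3, which mostly touches the peptide. A T cell that divides passes its joint on unchanged, so segment usage over cells carries the weight of expanded clones, while usage over clones counts each joint in a mouse a single time. Developing T cells become CD8+ or CD4+ cells after their receptors have been tested on MHC class I or class II molecules, and regulatory T cells, marked by the transcription factor Foxp3, are a class of CD4+ cells.

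The largest clone of each library is shown first, because usage per cell counts it by all of its cells and usage per clone a single time. The sequences are CDR3 nucleotides from the deposited contig table, 5′ to 3′, of genes on chromosome 6. Capitals mark the bases that match the V end and the J end shared by at least 50% of the clones of that segment. The lower case bases between them may be added, of D origin, or V and J bases beyond the shared ends.
anti-ACBP 1, TRBV12-2 with TRBJ2-5, 794 cells: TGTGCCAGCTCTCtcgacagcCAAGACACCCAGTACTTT
anti-ACBP 2, TRBV15 with TRBJ1-4, 109 cells: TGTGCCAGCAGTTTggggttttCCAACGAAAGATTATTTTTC
anti-ACBP 3, TRBV12-2+TRBV13-2 with TRBJ2-3, 168 cells: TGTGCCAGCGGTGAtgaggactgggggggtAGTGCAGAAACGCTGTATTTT
isotype 1, TRBV17 with TRBJ2-3, 318 cells: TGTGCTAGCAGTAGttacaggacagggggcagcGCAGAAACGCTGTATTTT
isotype 2, TRBV5 with TRBJ2-7, 217 cells: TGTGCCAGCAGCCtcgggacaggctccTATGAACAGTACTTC
isotype 3, TRBV13-1 with TRBJ2-7, 205 cells: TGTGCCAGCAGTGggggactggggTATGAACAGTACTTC
The clone of anti-ACBP 1 made up 14.7% of that library's chains (95% Wilson interval 13.8 to 15.7). The largest clones of the other 5 libraries each made up between 4.27% and 5.58% of their library. The 6 clones used 6 V labels and 4 J segments, and 5 of them were CD8 clones by their own co-receptor transcripts. The exception was the clone of anti-ACBP 2, in which 103 of 109 cells were CD4-lineage.

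The V segments on which the results below turn are shown through their own largest clone, with the same marking, so that the V end of each can be read. All are from chromosome 6.
TRBV3, isotype 3, 81 cells: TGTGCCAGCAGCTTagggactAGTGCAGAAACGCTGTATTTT
TRBV31, anti-ACBP 3, 19 cells: TGTGCCTGGAGTgtccggGAACAGTACTTC
TRBV1, anti-ACBP 3, 63 cells: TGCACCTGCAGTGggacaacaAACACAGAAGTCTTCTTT
TRBV14, isotype 2, 20 cells: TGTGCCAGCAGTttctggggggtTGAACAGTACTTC
TRBV12-1, isotype 3, 104 cells: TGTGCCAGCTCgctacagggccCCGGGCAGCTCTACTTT
TRBV13-3, isotype 3, 130 cells: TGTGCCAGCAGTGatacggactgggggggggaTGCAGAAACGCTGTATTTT
TRBV19, isotype 1, 261 cells: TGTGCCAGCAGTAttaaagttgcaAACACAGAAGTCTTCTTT
The CDR3 of all clones ran from 24 to 57 nt with a median of 42 nt, all were multiples of 3 bases, and 94.1% began with TGT, the cysteine codon at which CDR3 opens. Mean length ran by J segment from 40.3 nt for TRBJ1-1 to 44.2 nt for TRBJ2-2, and by V segment from 40.6 nt for TRBV12-1 to 43.1 nt for TRBV5.

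In RefSeq's annotation of GRCm38.p6, the assembly behind the authors' mm10 build, the segments lie in the T cell receptor beta locus of chromosome 6 and were matched by symbol. Trbv1 is at chr6:40891296-40891885, Trbv3 at chr6:41048394-41048824, Trbv12-1 at chr6:41113567-41114067, Trbv12-2 at chr6:41118864-41119364, Trbv13-2 at chr6:41121396-41121832, Trbv14 at chr6:41135167-41135616, Trbv19 at chr6:41178589-41179048 and Trbv20 at chr6:41188273-41188977, all annotated as V segments. Trbv31, at chr6:41557693-41558371, lies beyond the constant gene Trbc2. Of the J segments, Trbj1-1 is at chr6:41533864-41533911, Trbj1-2 at chr6:41534001-41534048, Trbj2-2 at chr6:41542957-41543007, Trbj2-5 at chr6:41543453-41543501 and Trbj2-7 at chr6:41543810-41543856. Of the 22 V labels, 21 matched a RefSeq symbol; the other was TRBV12-2+TRBV13-2, which names a pair of segments. Across 20 V segments lying 251.8 to 641.9 kb from Trbd1, the share of clones and the distance had r = 0.49 and rho = 0.55, a description over segments of 1 locus, which are not independent. TRBV13-2 entered at 2.39% of clones, without the 10.9% under TRBV12-2+TRBV13-2, and TRBV10 entered at the position of Trbv10. How far these 2 labels match their genes is given below.

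The labelled libraries held what they were named for. The T cell list (Cd3d, Cd3e, Cd3g, Trac) summed to 3893 to 4193 CPM (UMIs scaled to a common library total) in anti-ACBP libraries and 3588 to 4171 CPM in isotype libraries. Lists of other cell types were low, with the B cell list at 2.43 to 4.32 CPM in anti-ACBP and 3.37 to 4.50 CPM in isotype libraries (Ms4a1 at 0), the myeloid list at 11.6 to 13.9 and 11.6 to 13.3 CPM (Adgre1 at 0, nearly all of it Cd68), the NK and innate-like list at 1.71 to 2.62 and 1.55 to 2.90 CPM, and the fibroblast or tumour list at 0.117 to 0.285 and 0.168 to 0.300 CPM. Their part in the results was not tested. A TRB chain was found in 79.8, 83.4 and 82.9% of the cells of the anti-ACBP libraries 1, 2 and 3 and in 79.6, 77.4 and 77.3% of the cells of the isotype libraries 1, 2 and 3, with a median of 12, 13 and 12 UMIs per chain against 11, 7 and 7. The anti-ACBP libraries held 5390, 2554 and 3588 chains in 850, 629 and 762 clones, and the isotype libraries 6107, 4226 and 3674 chains in 1076, 695 and 733 clones. Of 30207 distinct barcodes, 536 occurred in more than 1 library, and 0 of these carried the same V segment and CDR3 in both. By their own Cd4, Cd8a and Cd8b1 UMIs, 17379 cells were CD8-lineage, 10752 CD4-lineage and 2618 (8.51%) neither or tied; of the clones, which took the majority of their cells, 1651 were CD8 and 2464 CD4.

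The deposited V labels matched the Trbv transcripts of the same cells for most segments. Over the labels other than TRBV5, TRBV10 and the composite label, the named gene held 87.1 to 97.7% of the Trbv UMIs of the cells with that chain. In cells labelled TRBV12-2+TRBV13-2, 92.8% of Trbv UMIs were Trbv13-2, and in 2914 of 2918 such chains the V region was identical to that of TRBV13-2 chains. Both labels also share the CDR1 bases, printed here in capitals beside those of TRBV12-2 to show which of the pair the chains carry.
TRBV12-2+TRBV13-2 CDR1: AATAACCACAACAAC
TRBV13-2 CDR1: AATAACCACAACAAC
TRBV12-2 CDR1: TCTGGACATCTCTCT
The composite label is given below under its deposited name. In cells labelled TRBV10, 89.7% of Trbv UMIs were Trbv4 and none Trbv10, a symbol that RefSeq annotates as a pseudogene. Where a cell with a TRB chain had at least 3 Trbv UMIs, at least 80% of them Trbv4, the label was TRBV10 in 99.6%. Tcrb-V10 is a listed synonym of Trbv4. TRBV10 below therefore names, as deposited, chains of cells that express Trbv4. Cells labelled TRBV5 had few Trbv5 UMIs, with a median of 1. Trbv5 held 79.8% of their Trbv UMIs, and 80.4% of these cells had any Trbv UMI. Of 19122 cells in which at least 3 Trbv UMIs came at least 80% from 1 gene, 93.7% had a TRB chain.

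Counted per clone, the order of the V labels as deposited was led by TRBV3. It took 12.9, 12.4 and 9.58% of clones in the anti-ACBP mice and 11.4, 15.3 and 13.1% in the isotype mice. TRBV12-2+TRBV13-2 came next, at 10.6, 11.1 and 11.7% of clones in the anti-ACBP mice and 11.9, 9.50 and 10.5% in the isotype mice. The groups overlapped for both labels. TRBV13-2, with the same V region as TRBV12-2+TRBV13-2, was ranked apart, at a mean of 2.39% of clones over the 6 mice. TRBV5 took 7.06, 9.70 and 6.69% of clones in the anti-ACBP mice and 7.16, 8.20 and 5.87% in the isotype mice. TRBV19 took 6.94, 6.68 and 5.77% in the anti-ACBP mice and 8.09, 7.63 and 7.37% in the isotype mice. For TRBV19 every anti-ACBP mouse lay below every isotype mouse, while TRBV5 overlapped. TRBV13-1 took 7.65, 5.09 and 6.69% in the anti-ACBP mice and 6.32, 6.04 and 7.23% in the isotype mice. TRBV2 took 4.71, 5.41 and 4.59% in the anti-ACBP mice and 4.93, 4.75 and 6.14% in the isotype mice. Both of these overlapped between the groups. At the bottom of the order, TRBV30 averaged 0.278% of clones over the 6 mice (13 clones in all), TRBV23 0.888% and TRBV17 1.05%. Of the 21 pairs of neighbours in this order, the ranges over the 6 mice did not overlap in 1, TRBV29 (mean 2.28%) and TRBV17 (mean 1.05%).

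Among the J segments, TRBJ2-7 was the most used, at 22.6, 20.7 and 23.4% of clones in the anti-ACBP mice and 20.1, 21.9 and 20.1% in the isotype mice. TRBJ2-5 followed, at 11.4, 12.9 and 13.4% in the anti-ACBP mice and 13.7, 12.7 and 12.6% in the isotype mice. The ranges of TRBJ2-7 and TRBJ2-5 over the 6 mice did not overlap, while each overlapped between the groups. TRBJ1-1 took 10.5, 7.95 and 10.1% of clones in the anti-ACBP mice and 10.1, 11.7 and 11.2% in the isotype mice. TRBJ2-1 took 9.41, 8.11 and 9.97% in the anti-ACBP mice and 10.3, 10.2 and 9.41% in the isotype mice. Both overlapped between the groups. TRBJ1-6 (2.27%) and TRBJ1-5 (2.47%) were the least used. Of 11 neighbouring pairs, 2 had ranges over the 6 mice that did not overlap: TRBJ2-7 with TRBJ2-5, and TRBJ1-2 (mean 5.10%) with TRBJ1-5. Trbj1-7 and the pseudogene Trbj2-6, both in the annotation, had 0 of 4745 clones, which allows a share of up to 0.0632%.

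**Figure D1:**
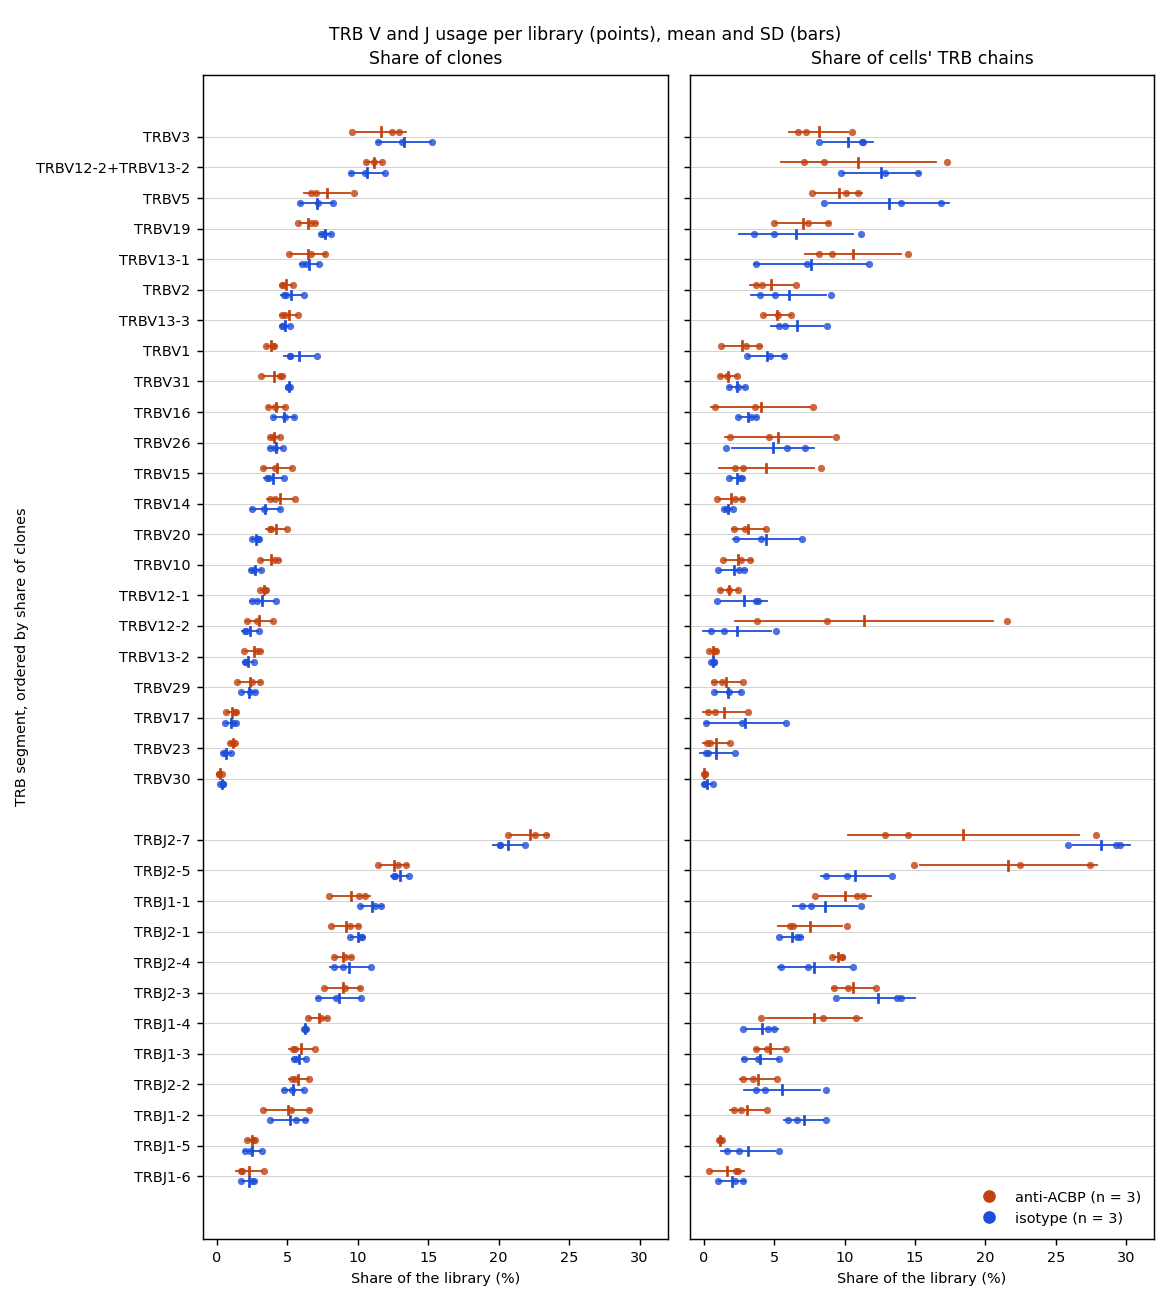
Share of a library's clones and share of its TRB chains (percent, horizontal axes) by V and J segment (vertical axis), with 1 point per mouse and the mean ± SD of the 3 anti-ACBP and the 3 isotype mice. The points lie closer together per clone than per cell, where TRBV12-2 ranged from 0.544 to 21.5%.

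Usage varied more between mice per cell than per clone in 19 of 22 V and 12 of 12 J segments. The median ratio of the highest to the lowest mouse was 1.65 per clone and 3.45 per cell for V, and 1.35 per clone and 2.71 per cell for J. Of the 4745 clones, 2644 (55.7%) were a single cell and 467 had at least 10 cells. By V label, the mean number of cells per clone ran from 1.43 ± 0.23 for TRBV13-2 to 15.95 ± 24.1 for TRBV12-2 (SD, n = 6 mice). The low value covers only the 158 chains labelled TRBV13-2 alone. The 2918 chains labelled TRBV12-2+TRBV13-2, with the same V region, had 5.75 ± 2.01 cells per clone. A single clone held 50.7% of all TRBV17 chains and 43.6% of all TRBV12-2 chains, but 3.54% of all TRBV3 chains. TRBV3, the most used V label per clone, was spread over 586 clones, and TRBV12-2 over 124. TRBV12-2+TRBV13-2 had 520 clones and TRBV13-2 another 111. These 2 labels share a V region and were counted apart, so the rank of TRBV3 holds for the labels as deposited.

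Between the treatment groups, no V segment was called per clone after adjustment. Each segment was tested with edgeR's quasi-likelihood test on clone counts, with Benjamini-Hochberg adjustment over all segments of the kind and a threshold of 0.05. It called 0 of 22 V segments (0.0%), 2 at an unadjusted p under 0.05, and DESeq2 called 0. Log2 fold changes ran from -0.62 to 0.62. In simulated tables edgeR's test recovered 35% of 1.5-fold and 79% of 2-fold changes in V usage per clone. The groups did not overlap in 4 of 22 V segments per clone, namely TRBV1, TRBV19, TRBV20 and TRBV31, and in 0 of 22 per cell. With 3 mice against 3, such a lack of overlap gives an exact permutation p of 0.1 for a segment and is not a call. The mix of lineages over clones differed as well. CD4 clones made up 58.3, 55.5 and 48.3% of the clones with a lineage in the anti-ACBP mice. In the isotype mice they made up 67.7, 65.4 and 61.8%, without overlap. The sort mixed CD4+ and CD8+ cells, not clones, in equal numbers. Of the cells with a lineage, 30.4, 34.0 and 34.3% were CD4 in the anti-ACBP mice and 43.3, 53.4 and 30.6% in the isotype mice. These cell shares overlap between the groups. TRBV1 and TRBV31 were CD4-side segments (below), and within CD4 clones their treatment log2 fold changes were -0.48 and -0.37, neither called. The design text gives n = 3 mice per group, so that the p-values measure the spread between mice, and shares within a library sum to a whole, so that a gain in one segment lowers the others.

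TRBV1 was nearest to a call. It took 4.0, 3.50 and 4.07% of clones in the anti-ACBP mice (95% Wilson intervals 2.88 to 5.54, 2.32 to 5.24 and 2.88 to 5.72) and 7.06, 5.18 and 5.18% in the isotype mice (5.68 to 8.75, 3.76 to 7.09 and 3.80 to 7.04). The anti-ACBP mice averaged 3.86 ± 0.31% and the isotype mice 5.81 ± 1.09% (SD, n = 3 each); the log2 fold change was -0.62 with an SE of 0.20 (adjusted p = 0.0641 by edgeR). The labels name no pairing of mice. Deviations of same-numbered mice correlated at 0.263, 0.678 and 0.410 in V usage per clone, but at -0.449, -0.733 and -0.269 in J usage per clone. With the replicate number as a block, a pairing that these correlations do not establish, TRBV1 passed (log2 -0.61, edgeR adjusted p = 0.0487). It also passed without the isotype mouse 2 (-0.70, adjusted p = 0.0476), in cells with a single TRB chain (-0.70, adjusted p = 0.0237), with chains of at least 3 UMIs (-0.66, adjusted p = 0.0304), and where only segments with at least 50 clones were tested (adjusted p = 0.0353). TRBV20 took 3.76, 3.82 and 4.99% of clones in the anti-ACBP mice and 2.97, 2.88 and 2.46% in the isotype mice, a log2 difference of 0.58 ± 0.24 (edgeR adjusted p = 0.166). TRBV10 took 3.06, 4.29 and 4.07% in the anti-ACBP mice and 2.42, 2.59 and 3.14% in the isotype mice, a log2 difference of 0.48 ± 0.24 (edgeR adjusted p = 0.368). TRBV20 was higher in every anti-ACBP mouse than in any isotype mouse, and TRBV10 overlapped.

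No J segment was called per clone either. edgeR's quasi-likelihood test called 0 of 12 (0.0%), with 0 at an unadjusted p under 0.05 and 0 by DESeq2, and the log2 fold changes ran from -0.17 to 0.20. The smallest p-values belonged to TRBJ1-1 (-0.17 ± 0.12), TRBJ2-7 (0.12 ± 0.07) and TRBJ1-4 (0.20 ± 0.17), with the smallest adjusted p at 0.816. TRBJ1-4 was the only J segment whose groups did not overlap.

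Per cell, 2 J segments differed between the treatments. TRBJ2-5 rose: it took 27.4, 22.5 and 14.9% of the chains in the anti-ACBP mice and 10.2, 13.4 and 8.68% in the isotype mice. TRBJ1-2 fell: it took 2.67, 4.46 and 2.17% in the anti-ACBP mice and 5.98, 8.66 and 6.64% in the isotype mice. The groups did not overlap in 3 of 12 J segments per cell, these 2 and TRBJ1-5, which was not called. TRBJ1-5 took 1.26, 1.14 and 1.11% in the anti-ACBP mice and 5.32, 1.63 and 2.48% in the isotype mice. TRBJ2-5 and TRBJ1-2 were the calls among 12 J segments (16.7% called, 3 at an unadjusted p under 0.05, 3 called by DESeq2). TRBJ2-5 averaged 21.6 ± 6.29% in the anti-ACBP mice and 10.8 ± 2.40% in the isotype mice, and the log2 fold change was 1.01 with an SE of 0.35 (adjusted p = 0.0329 by edgeR). TRBJ1-2 averaged 3.10 ± 1.20% in the anti-ACBP mice and 7.09 ± 1.40% in the isotype mice, a log2 fold change of -1.20 ± 0.40 (edgeR adjusted p = 0.0329).

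Both calls were lost without a few clones or without single mice. The 10 largest clones of a library contributed 20.7, 10.7 and 4.65 percentage points of the TRBJ2-5 share in the anti-ACBP mice and 1.24, 5.04 and 2.40 points in the isotype mice. The rest of the TRBJ2-5 share was 6.70, 11.8 and 10.3 points in the anti-ACBP mice and 8.96, 8.35 and 6.29 points in the isotype mice, which overlap. Without those clones the log2 fold change was 0.32 for TRBJ2-5 (edgeR adjusted p = 0.426) and -0.82 for TRBJ1-2 (adjusted p = 0.308). TRBJ2-5 also missed the threshold without the isotype mice 1 (0.97, adjusted p = 0.238) or 3 (0.87, adjusted p = 0.235), without the anti-ACBP mice 1 (0.80, adjusted p = 0.183) or 2 (0.98, adjusted p = 0.116), and in cells with a single TRB chain (0.97, adjusted p = 0.0621). TRBJ1-2 missed it without the isotype mice 1 (-1.31, adjusted p = 0.0683), 2 (-1.03, adjusted p = 0.0807) or 3 (-1.24, adjusted p = 0.119), and without the anti-ACBP mice 1 (-1.10, adjusted p = 0.183) or 3 (-0.999, adjusted p = 0.179). Leaving out receptors found in more than 1 library, an alternative chosen after seeing the data, gave 0.69 for TRBJ2-5 (adjusted p = 0.116) and -1.09 for TRBJ1-2 (adjusted p = 0.0695). TRBJ2-7, the most used J segment, had 12.9, 14.5 and 27.8% of chains in the anti-ACBP mice and 29.5, 25.9 and 29.3% in the isotype mice, and was not called (log2 -0.62).

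**Figure D2:**
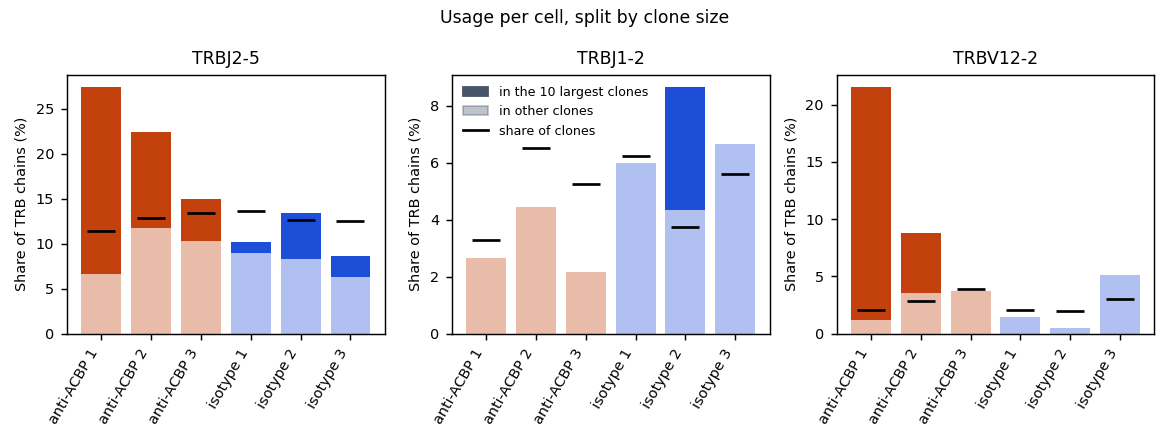
Share of each library's TRB chains (percent, vertical axis) with TRBJ2-5, TRBJ1-2 and TRBV12-2, 1 bar per mouse, split into chains of the library's 10 largest clones and all other chains; the black line is the share of clones. For TRBJ2-5 the 10 largest clones gave 20.7 points in anti-ACBP 1 and 1.24 points in isotype 1.

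No V segment was called per cell: edgeR's quasi-likelihood test called 0 of 22 (0.0%), 1 at an unadjusted p under 0.05, and DESeq2 called 0. In simulated tables this test recovered only 3.5% of 2-fold and 39.5% of 4-fold changes per cell. The lack of a call therefore does not show equal usage. TRBV12-2 had the smallest p, with 21.5, 8.77 and 3.76% of chains in the anti-ACBP mice and 1.47, 0.544 and 5.12% in the isotype mice. The groups overlapped, since anti-ACBP 3 lay below isotype 3. The log2 fold change was 2.26 ± 0.80 (edgeR adjusted p = 0.287), and it was 0.25 without the 10 largest clones of each library. TRBV12-2 passed without the isotype mouse 3 (3.48, adjusted p = 0.00552) or the anti-ACBP mouse 3 (2.68, adjusted p = 0.00134). TRBV30 (-2.29 ± 1.18) and TRBV15 (0.92 ± 0.66) were next by p and were not called.

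The TRBV12-2 and TRBJ2-5 clone of anti-ACBP 1 supplied 68.4% of the TRBV12-2 chains and 53.7% of the TRBJ2-5 chains of its library. Of its cells 793 were CD8-lineage, and 371 fell in the authors' cluster 0. Its CDR3 translation, with the same V and J, occurred in 4 libraries, 886 cells in all, through 4 nucleotide sequences. They are set out here because they show the same beta chain built from different joints. Alpha chains were not compared. Capitals mark the bases that differ from the first.
anti-ACBP 1, and 1 cell of anti-ACBP 3, 795 cells: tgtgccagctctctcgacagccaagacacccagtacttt
anti-ACBP 3, 42 cells: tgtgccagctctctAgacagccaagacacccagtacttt
isotype 1, 27 cells: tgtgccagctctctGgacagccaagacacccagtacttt
anti-ACBP 2, 22 cells: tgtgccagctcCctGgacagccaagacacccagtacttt
The sequences of anti-ACBP 3 (42 cells), isotype 1 and anti-ACBP 2 differ from the first by 1, 1 and 2 bases. Over the series, 196 of 4309 receptors (V, J and translated CDR3; 4.55%) occurred in at least 2 libraries. The share of a segment's clones that carried such a receptor ran among V segments from 0% for TRBV23 and TRBV30, through 2.15% for TRBV14 and 19.6% for TRBV3, to 24.4% for TRBV5.

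Segment usage differed widely between CD8 and CD4 clones of the same mouse. With the mouse as a block, edgeR's quasi-likelihood test called 10 of 22 V segments (45.5%), 7 higher and 3 lower in CD8 clones; 11 had an unadjusted p under 0.05. DESeq2 called 6 of them, TRBV3, TRBV14, TRBV12-1, TRBV31, TRBV12-2 and TRBV1. Lineage was read from the cells' own Cd4, Cd8a and Cd8b1 UMIs and not from the receptor.

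TRBV3 was the segment with the largest share among CD4 clones. It ranged from 1.99 to 6.40% of CD8 clones (median 2.85%) and from 16.1 to 21.4% of CD4 clones (median 19.7%) over the 6 mice. It averaged 3.45 ± 1.68% in CD8 clones and 18.9 ± 2.18% in CD4 clones (SD, n = 6), a log2 fold change of -2.52 ± 0.19 (edgeR adjusted p = 5.96e-24). TRBV31 ranged from 0.276 to 2.46% of CD8 clones (median 1.62%) and from 5.03 to 7.60% of CD4 clones (median 5.98%), a log2 fold change of -2.10 ± 0.31 (edgeR adjusted p = 3.09e-09). TRBV1 ranged from 0.446 to 4.32% of CD8 clones (median 1.91%) and from 4.81 to 8.39% of CD4 clones (median 5.61%), a log2 fold change of -1.43 ± 0.27 (edgeR adjusted p = 2.4e-06). For all 3 of these V segments, the highest CD8 value lay below the lowest CD4 value.

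TRBV14 and the TRBV12 segments stood on the CD8 side. TRBV14 ranged from 4.93 to 10.7% of CD8 clones (median 8.09%) and from 1.18 to 2.56% of CD4 clones (median 1.34%), a log2 fold change of 2.31 ± 0.27 (edgeR adjusted p = 8.0e-13). TRBV12-1 ranged from 4.02 to 8.87% of CD8 clones (median 6.74%) and from 0.321 to 1.82% of CD4 clones (median 1.38%), a log2 fold change of 2.39 ± 0.31 (edgeR adjusted p = 4.5e-11). TRBV12-2 ranged from 3.65 to 6.70% of CD8 clones (median 4.86%) and from 0.230 to 1.48% of CD4 clones (median 0.894%), a log2 fold change of 2.44 ± 0.36 (edgeR adjusted p = 3.09e-09). The lineages did not overlap for TRBV14, TRBV12-1 or TRBV12-2. TRBV12-2+TRBV13-2, which carries the TRBV13-2 sequence, averaged 9.67% of CD8 and 11.9% of CD4 clones and was not called.

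The remaining calls were smaller. TRBV13-3 ranged from 5.53 to 8.93% of CD8 clones (median 6.26%) and from 3.21 to 5.29% of CD4 clones (median 4.03%), with a log2 fold change of 0.74 ± 0.23 (edgeR adjusted p = 0.00463). TRBV5 ranged from 6.63 to 13.3% of CD8 clones (median 8.48%) and from 4.41 to 8.01% of CD4 clones (median 6.27%), with a log2 fold change of 0.57 ± 0.19 (edgeR adjusted p = 0.00874). The lineages overlapped for TRBV5, which was higher in CD8 clones in 6 of 6 mice, and not for TRBV13-3. TRBV13-3 missed the threshold without the isotype mouse 1 (0.61, adjusted p = 0.0635), with TMM scaling (0.41, adjusted p = 0.141) and with DESeq2 (adjusted p = 0.128). TRBV5 missed it without the isotype mouse 2 (0.43, adjusted p = 0.0560), with TMM scaling (0.25, adjusted p = 0.304), with DESeq2 (adjusted p = 0.214) and, chosen after seeing the data, without receptors of more than 1 library (0.46, adjusted p = 0.0538). The other calls were TRBV13-1 (log2 0.56, adjusted p = 0.0150) and TRBV26 (log2 0.73, adjusted p = 0.0158), both higher in CD8 clones. With lineage read from the authors' clusters, the log2 fold change was -1.41 for TRBV3, 1.72 for TRBV14, 1.36 for TRBV12-1, 1.22 for TRBV12-2, -2.13 for TRBV31, -1.37 for TRBV1, 0.64 for TRBV13-3 and 0.64 for TRBV5, and each still passed. TRBV3, TRBV12-1 and TRBV12-2 were the ones whose value moved by more than 1.5 times.

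**Figure D3:**
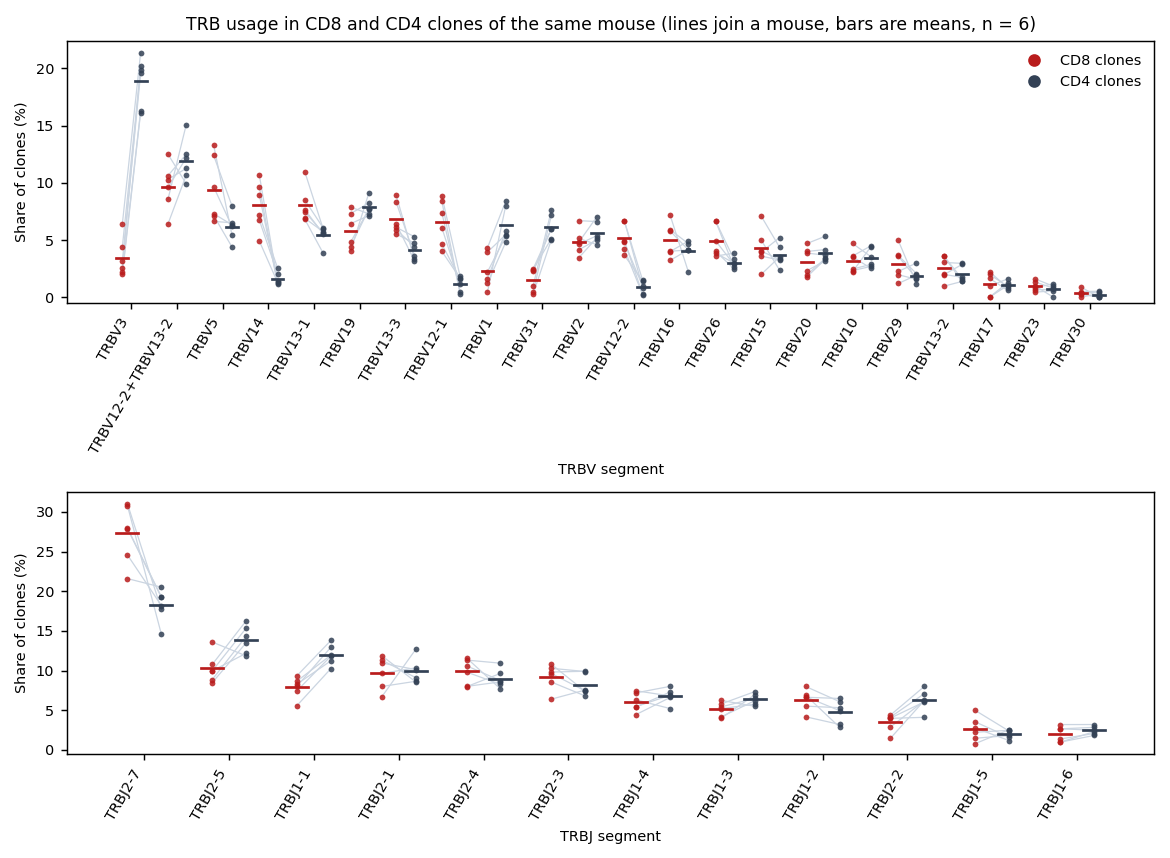
Share of clones (percent, vertical axis) by V and J segment in the CD8 and CD4 clones of each of the 6 mice, 1 point per mouse and lineage. TRBV3 lies at 1.99 to 6.40% in CD8 clones and at 16.1 to 21.4% in CD4 clones.

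Of the J segments, 4 of 12 (33.3%) were called between the lineages by edgeR's quasi-likelihood test, 4 at an unadjusted p under 0.05 and 0 by DESeq2. TRBJ2-7 ranged from 21.6 to 31.0% of CD8 clones (median 27.9%) and from 14.6 to 20.5% of CD4 clones (median 18.7%), a log2 fold change of 0.57 ± 0.13 (edgeR adjusted p = 0.000493, DESeq2 adjusted p = 0.0620). TRBJ1-1 ranged from 5.60 to 9.36% of CD8 clones (median 8.17%) and from 10.3 to 13.8% of CD4 clones (median 11.9%), a log2 fold change of -0.59 ± 0.14 (edgeR adjusted p = 0.000493, DESeq2 adjusted p = 0.0659). The lineages did not overlap for TRBJ2-7 or TRBJ1-1. TRBJ2-2 ranged from 1.48 to 4.40% of CD8 clones (median 4.0%) and from 4.11 to 8.01% of CD4 clones (median 6.23%), a log2 fold change of -0.80 ± 0.18 (edgeR adjusted p = 0.000750, DESeq2 adjusted p = 0.0620). TRBJ2-5 ranged from 8.48 to 13.6% of CD8 clones (median 9.97%) and from 11.9 to 16.3% of CD4 clones (median 13.9%), a log2 fold change of -0.45 ± 0.13 (edgeR adjusted p = 0.00434, DESeq2 adjusted p = 0.221). These 2 overlapped between the lineages. With lineage from the clusters, TRBJ1-1 (-0.22, adjusted p = 0.454) and TRBJ2-5 (-0.28, adjusted p = 0.208) missed the threshold.

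CD8 clones were spread over more V segments. The effective number of V segments, the number of equally used segments that would give the same Shannon diversity, was 17.5 ± 0.58 over CD8 clones and 15.2 ± 0.27 over CD4 clones (SD, n = 6, exact two-sided sign-flip permutation p = 0.03125, the smallest that 6 pairs allow). Over cells it was 12.2 in CD8 and 13.2 in CD4 (exact permutation p = 0.344). CD8 cells held the larger clones, with 47.9 ± 9.94% of CD8 chains and 29.4 ± 4.11% of CD4 chains in the 10 largest clones (exact permutation p = 0.03125). The TRBJ2 cluster of J segments took 70.0 ± 1.56% of CD8 clones and 65.5 ± 1.02% of CD4 clones, and mean CDR3 length was 42.1 ± 0.23 nt in CD8 clones and 41.7 ± 0.14 nt in CD4 clones (exact permutation p = 0.03125 for each). All 4 differences called here had the same direction in 6 of 6 mice.

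Within the CD4 lineage, usage differed between Foxp3+ and Foxp3- clones for a few V segments. Cells with at least 1 Foxp3 UMI were taken as Foxp3+, so that some Foxp3+ cells are missed. Such a UMI was found in 26.7% of CD4-lineage cells and 2.51% of CD8-lineage cells. It was also found in 37.5% of the 2618 cells of neither or tied lineage, which were not counted here. A clone took the majority of its CD4-lineage cells, whatever its other cells were. There were 775 Foxp3+ clones (76 to 256 per mouse), of which 758 were mostly CD4-lineage, and 1679 Foxp3- clones (203 to 384 per mouse), of which 1667 were. edgeR's quasi-likelihood test with the mouse as a block called 3 of 21 V segments (14.3%), with 4 at an unadjusted p under 0.05 and 3 by DESeq2.

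TRBV19 was higher in Foxp3+ clones in 6 of 6 mice. It ranged from 8.41 to 18.4% of Foxp3+ clones (median 11.7%) and from 4.65 to 6.90% of Foxp3- clones (median 6.21%), with no overlap. It averaged 12.3 ± 3.53% in Foxp3+ clones and 6.08 ± 0.76% in Foxp3- clones (SD, n = 6; 94 and 102 clones in all), a log2 fold change of 0.98 ± 0.22 (edgeR adjusted p = 0.00257). TRBV19 passed under each of the 20 alternatives, among them with the authors' cluster 2 as the regulatory class (0.80, adjusted p = 0.00881). TRBV3 ranged from 8.98 to 17.5% of Foxp3+ clones (median 12.8%) and from 17.1 to 24.9% of Foxp3- clones (median 22.4%). It was lower in Foxp3+ clones in 6 of 6 mice, with a log2 fold change of -0.81 ± 0.23 (edgeR adjusted p = 0.0160). TRBV3 missed the threshold without the isotype mice 1 (-0.69, adjusted p = 0.156) or 2 (-0.74, adjusted p = 0.0878) or the anti-ACBP mouse 2 (-0.76, adjusted p = 0.138). TRBV12-2 averaged 1.94 ± 1.39% of Foxp3+ clones and 0.389 ± 0.35% of Foxp3- clones, from 15 and 7 clones, a log2 fold change of 1.98 ± 0.63 (edgeR adjusted p = 0.0258) with the same direction in 5 of 6 mice. TRBV12-2 missed it without the isotype mouse 1 (2.25, adjusted p = 0.156) or the anti-ACBP mice 2 (1.70, adjusted p = 0.138) or 3 (1.89, adjusted p = 0.133), and with chains of at least 3 UMIs (1.89, adjusted p = 0.0697).

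No J segment differed between Foxp3+ and Foxp3- clones: edgeR's quasi-likelihood test called 0 of 12 (0.0%), with 0 at an unadjusted p under 0.05 and 0 by DESeq2, and the smallest adjusted p was 0.697. TRBJ2-2 averaged 7.69% of Foxp3+ clones and 5.80% of Foxp3- clones (log2 0.43 ± 0.18). TRBJ1-1 (log2 -0.27) and TRBJ2-5 (log2 -0.25) were next by p.

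**Figure D4:**
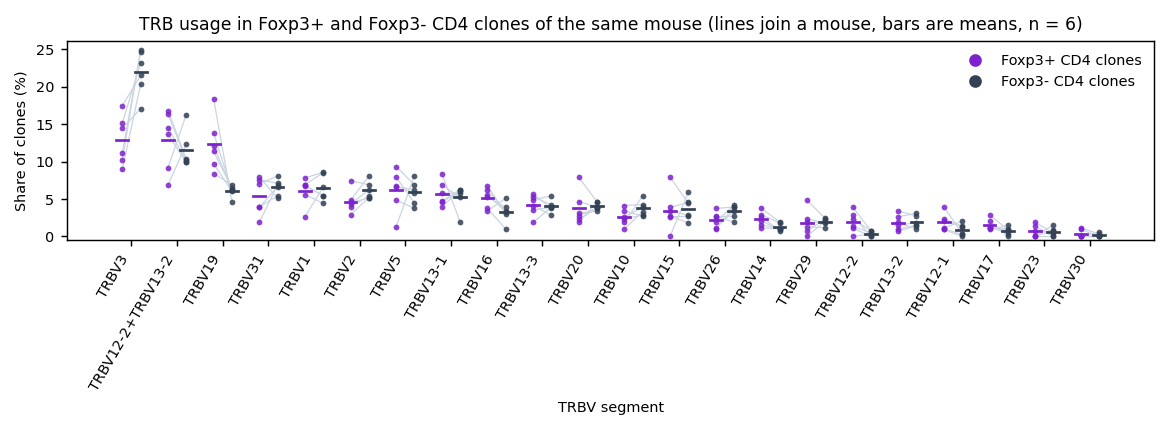
Share of clones (percent, vertical axis) by V segment in the Foxp3+ and Foxp3- CD4 clones of each of the 6 mice, 1 point per mouse and class. TRBV19 lies at 8.41 to 18.4% in Foxp3+ clones and at 4.65 to 6.90% in Foxp3- clones.

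Within each lineage, treatment did not change the usage of any segment past the threshold. In CD8 clones edgeR's quasi-likelihood test called 0 of 21 V segments (0.0%, 1 at an unadjusted p under 0.05, 0 by DESeq2) and in CD4 clones 0 of 21 (0.0%, 2 at an unadjusted p under 0.05, 0 by DESeq2). In CD8 clones TRBV20 took 3.86, 4.0 and 4.70% in the anti-ACBP mice and 2.33, 1.97 and 1.79% in the isotype mice (log2 1.02 ± 0.40, edgeR adjusted p = 0.432). TRBV10 took 3.54, 3.60 and 4.70% in the anti-ACBP mice and 2.33, 2.46 and 2.23% in the isotype mice (log2 0.76, edgeR adjusted p = 0.730). Neither overlapped between the groups in CD8 clones, and TRBV13-3 (log2 -0.38) was next by p. In CD4 clones TRBV12-1 took 0.460, 0.321 and 1.18% in the anti-ACBP mice and 1.58, 1.82 and 1.65% in the isotype mice (log2 -1.33 ± 0.60, edgeR adjusted p = 0.408). TRBV1 took 5.75, 4.81 and 5.33% of CD4 clones in the anti-ACBP mice and 8.39, 5.47 and 7.99% in the isotype mice (log2 -0.48 ± 0.20, edgeR adjusted p = 0.408). TRBV12-1 did not overlap between the groups, TRBV1 did, and TRBV31 (log2 -0.37, edgeR adjusted p = 0.667) was next by p.

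The treatment effect was not shown to differ between the lineages. edgeR's interaction term called 0 of 22 V segments (0.0%, 1 at an unadjusted p under 0.05, 0 by DESeq2), the smallest p being that of TRBV12-1 (log2 1.67 ± 0.67, adjusted p = 0.470), followed by TRBV13-3 (-0.63) and TRBV10 (0.67). For J segments edgeR called 0 of 12 in CD8 clones, 0 of 12 in CD4 clones and 0 of 12 for the interaction (0.0% each, 0 at an unadjusted p under 0.05 and 0 by DESeq2 in each). The smallest p-values there belonged to TRBJ2-5 in CD8 clones (log2 0.29), TRBJ2-2 in CD4 clones (log2 0.42, adjusted p = 0.728) and TRBJ2-5 in the interaction (log2 0.39, adjusted p = 0.983).

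Summaries of the whole repertoire were compared between the treatments with exact permutation tests, two-sided; with 3 mice against 3 their p cannot go below 0.1. The effective number of V segments over clones was 18.1 ± 0.52 in the anti-ACBP mice and 17.5 ± 0.40 in the isotype mice (SD, n = 3 each, exact permutation p = 0.2). Over cells it was 14.96 ± 1.90 in the anti-ACBP mice and 15.3 ± 0.64 in the isotype mice (exact permutation p = 0.9). The 10 largest clones held 31.0 ± 9.30% of chains in the anti-ACBP mice and 28.1 ± 3.18% in the isotype mice (exact permutation p = 0.8). Mean CDR3 length was higher in every anti-ACBP mouse than in any isotype mouse, at 41.90 ± 0.03 nt in the anti-ACBP mice and 41.74 ± 0.04 nt in the isotype mice (exact permutation p = 0.1, the smallest possible). CDR3 was also longer in CD8 than in CD4 clones, and the part of the lineage mix in this difference was not tested.

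Across the authors' clusters 0 to 8, usage is given as a description without a test, since the clusters were made from the same cells' expression. In cluster 7, where 11.1% of cells were CD8-lineage, TRBV3 took a mean of 24.3% of clones (14.8 to 31.9% over the 6 libraries). In cluster 0, where 96.1% were, TRBV3 took 4.76% (3.25 to 8.19%). TRBV31 took 6.12% of clones in cluster 1 and 0.720% in cluster 0, and TRBV14 took 6.80% in cluster 0 and 0.721% in cluster 7. TRBJ2-7 took 26.8% of clones in cluster 0 and 17.9% in cluster 7. Cluster 2, where Foxp3 was detected in 81.0% of cells, had TRBV19 at 9.92% of clones (7.65 to 11.9%). Cluster 6, made up of 96.8% CD8 cells, had TRBV12-2 at 8.43% of clones (2.27 to 12.5%) and at 17.6% of chains, with single libraries between 1.09 and 55.3%. Its largest clone held 13.4% of its chains, the highest such share among the 9 clusters. Cluster 8 was thin, with 7 to 159 clones per library.

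**Figure D5:**
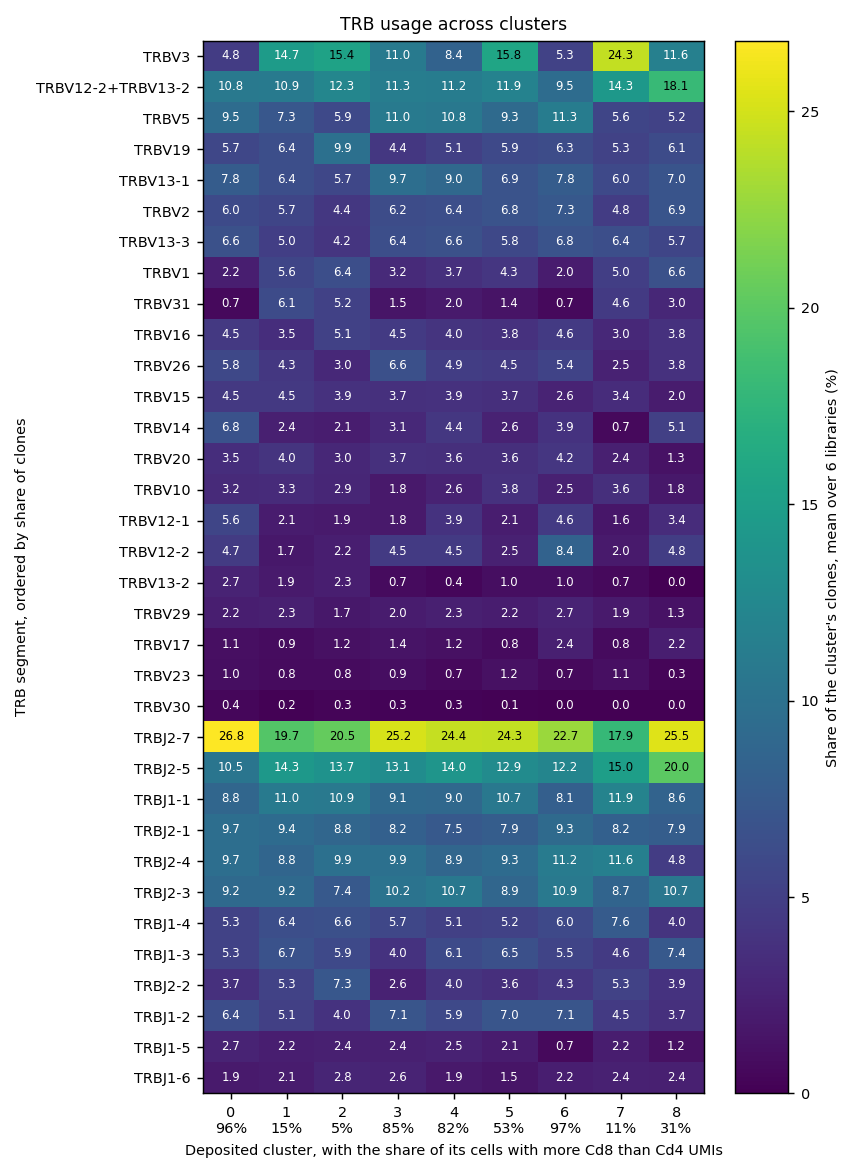
Mean share of a cluster's clones (percent, colour scale) over the 6 libraries for each V and J segment (one axis) in the authors' clusters 0 to 8 (the other axis). TRBV3 is at 24.3% in cluster 7 and at 4.76% in cluster 0.

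V and J segments were paired broadly. Of 264 possible pairs, 253 were seen, and for the 170 pairs with at least 10 clones expected from the separate V and J shares the ratio of observed to expected clones had a median of 0.947. The lowest ratio was 0.151, for TRBV3 with TRBJ1-6 (2 clones, 13.2 expected), and the highest 2.05, for TRBV31 with TRBJ1-2 (23 clones, 11.2 expected). TRBV12-2 with TRBJ2-5, the pair of the largest clone, had 29 clones against 15.9 expected and was above expectation in all 6 libraries, so that its joints were numerous as well as its cells. TRBV12-2+TRBV13-2 with TRBJ1-1 had 20 clones against 53.5 expected, and TRBV5 with TRBJ2-1 had 11 against 33.7. In all, 10 pairs were above expectation in 6 of 6 libraries and 22 in 0. Every clone with a called constant segment joined TRBJ1 to TRBC1 or TRBJ2 to TRBC2, the order in which they lie on the chromosome. Among clones with a called D segment, TRBD2 was named in 3 TRBJ1 clones (0.932%, beside 319 with TRBD1) and in 369 TRBJ2 clones (41.7%, beside 516 with TRBD1); on the chromosome Trbd2 lies after the TRBJ1 cluster.

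Receptor genes were also read in the expression libraries, by summing UMIs per mouse over CD8-lineage and over CD4-lineage cells. edgeR's quasi-likelihood test between the treatments called 75 of 11886 genes in CD8 cells (0.631%) and 107 of 11373 in CD4 cells (0.941%). It called 0 of the 23 Trbv genes tested in either lineage (35 were listed; 2 in CD8 and 1 in CD4 cells at an unadjusted p under 0.05). Of the constant and CD3 genes it called 0 of 8 in CD8 and 0 of 7 in CD4 cells (0 and 1 unadjusted), and of the proximal signalling genes 0 of 15 in each (5 unadjusted in each). DESeq2 called 2 listed genes in CD8 cells (Cd28 and Trbv24) and 3 in CD4 cells, among them Csk and Trbc1. Rag1, Rag2 and Dntt, which make the joints in the thymus, did not reach the count minimum of the test in either lineage.

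In CD8 cells Cd28, a costimulatory receptor, had 230, 236 and 243 CPM in the anti-ACBP mice and 199, 175 and 193 CPM in the isotype mice (log2 0.29 ± 0.07, edgeR adjusted p = 0.0980). Ptpn22, a phosphatase that restrains receptor signalling, was next (log2 0.24, edgeR adjusted p = 0.131). Trbv12-2, read because of its chain usage above, had 579, 298 and 132 CPM in the anti-ACBP mice and 62.0, 21.9 and 118 CPM in the isotype mice (log2 2.31 ± 0.88, edgeR adjusted p = 0.290). Cd28 did not overlap between the groups, and neither did Trbv12-2, whose lowest anti-ACBP value lay just above the highest isotype value. In CD4 cells Csk, a kinase that restrains Lck, had 105, 114 and 105 CPM in the anti-ACBP mice and 143, 139 and 142 CPM in the isotype mice (log2 -0.36 ± 0.07, edgeR adjusted p = 0.0538). Csk did not overlap between the groups. Trbc1, the constant gene of chains with a TRBJ1 segment, had 119, 163 and 145 CPM in the anti-ACBP mice and 76.6, 115 and 112 CPM in the isotype mice (log2 0.53 ± 0.17, edgeR adjusted p = 0.144).

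Invariant receptors were rare. The TRAV11 and TRAJ18 alpha chain of invariant NKT cells was found in 3 cells, of which 2 carried TRBV29 and 1 carried TRBV12-2+TRBV13-2. The TRAV1 and TRAJ33 alpha chain of MAIT cells was found in 0 of 24511 cells with a TRB chain, which allows a share of up to 0.0122%.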

How the data were processed

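Receptor and expression libraries of 6 mice were analysed. The submitters' processing notes name Seurat, Cell Ranger 7.0.0 and, as build, mm10. The deposited contig table gives UMI counts per receptor contig, and the authors' matrices give UMI counts per gene and cell. The authors' cell table gives the library, barcode and cluster of each cell. Its further filters are not given in the sources used here, and doublets were treated as the authors left them, with cells of 1 TRB chain as an alternative.

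From these, clones and cells were counted per segment in each mouse. Segments with at least 10 counts were tested with edgeR 4.0.16 (quasi-likelihood, common dispersion, library total as size) in R 4.3.3 with limma 3.58.1, adjusted over all segments of a kind. Expression used edgeR with TMM scaling on summed UMI counts (14003500 to 37655000 per mouse in CD8 cells, 7178470 to 28839500 in CD4 cells). Alternatives were DESeq2 1.42.0, TMM factors, count minimums of none or 50, the replicate block, each mouse left out, cells with 1 TRB chain, at least 3 UMIs, clones by translated CDR3, lineage or regulatory class from clusters, clones counted in each class, and usage without the 10 largest clones. Alternatives chosen after seeing the data were pooling TRBV12-2+TRBV13-2 with TRBV13-2, Foxp3 tests in mostly CD4 clones, and leaving out receptors of more than 1 library. Counting used pandas 2.3.3 and numpy 2.4.6.

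The replicate numbers of the labels name no shared litter or day. Deviations of same-numbered mice correlated at 0.263, 0.678 and 0.410 in V usage per clone and at 0.483, 0.487 and 0.111 in J usage per cell, all over 0.1. In J usage per clone the same mice correlated at -0.449, -0.733 and -0.269. A pairing of the mice was therefore not shown. The block is an alternative whose pairing was read from the values under test. With the block, J usage per cell again had 2 calls (TRBJ2-5 0.99, TRBJ1-2 -1.24).

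The members and lists were chosen with earlier results of these data known. Named are the 6 most used V and 4 most used J segments, every called segment (at most the 8 of smallest p per comparison, with the others by fold change) and, where none passed, the 3 of smallest p; for expression lists with no call, the 2 of smallest p. Some genes called by DESeq2, and Trbv12-2 and Trbv14, were also named after their values were seen. Values of some single listed genes are not reported here. Scripts were tested on simulated data. Intervals and floors cover counting error only.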

Additional observations from a re-analysis of the deposited data

Results flagged for a closer look

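In 50 sets of 6 mice checked for a value standing apart from the rest, 1 did. The share of TRBV19 among Foxp3- CD4 clones was 4.65% in anti-ACBP 3, while the other 5 mice lay between 6.06 and 6.90%. Chance gives such a gap in about 1 of 20 sets, so 1 in 50 is below that rate.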

How the results depend on the processing

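Over 59 named segments and genes and 961 alternative values, 910 kept their direction and their side of the threshold, 34 lost a call, 15 gained one and 2 changed sign, neither of which was called: TRBV10 in the interaction was -0.30, and TRBJ2-4 within CD4 clones 0.0478, with lineage from clusters. For V usage per clone between treatments the count of called segments was 1 in place of 0 with a minimum of 50 clones, with the replicate block, in cells with 1 TRB chain and with at least 3 UMIs, and 0 to 1 on leaving out a mouse; per cell it was 0 to 1. V usage between CD8 and CD4 gave 6 in place of 10 with DESeq2, and between Foxp3+ and Foxp3- clones 1 to 3 on leaving out a mouse. J usage per cell gave 1 in place of 2 in cells with 1 TRB chain, 0 without the 10 largest clones, 0 without receptors of more than 1 library (chosen after seeing the data), and 0 to 3 on leaving out a mouse. J usage between CD8 and CD4 gave 0 in place of 4 with DESeq2 and 2 with lineage from clusters. Listed receptor genes called in expression were, in place of 0, 2 with DESeq2, 1 with the replicate block and 0 to 1 on leaving out a mouse in CD8 cells, and 3 with DESeq2 and 2 with no count filter in CD4 cells. The cause of these changes was not tested.

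On leaving out a mouse, the difference between anti-ACBP and isotype mice was -0.891 to 0.774 in effective V segments per cell, -1.03 to 2.58 points in TRBJ2 per cell, -1.46 to 4.04 points in the most used V per cell and -2.44 to 6.03 points in the 10 largest clones. The difference between CD8 and CD4 was 2.13 to 2.31 effective V segments per clone, 4.17 to 4.90 points of TRBJ2 per clone, 0.259 to 0.401 nt of CDR3 length, -0.786 to 4.59 points for the most used V per cell and 16.1 to 21.5 points for the 10 largest clones; the exact permutation p is then at least 0.0625, the smallest that 5 mice allow. In cells with 1 TRB chain, the most used V per cell differed by -0.204 points between treatments and by -0.471 points between lineages, and CDR3 length by 0.314 nt between lineages (exact permutation p = 0.0938). For V usage per cell, J usage per clone and expression the same-numbered mice did not all correlate above 0.1 (correlations from -0.733 to 0.463). The block called 0 V segments per cell. Where the same-numbered mice all correlated above 0.1, the block changed no call but that of TRBV1. Depth limits shares per clone: with 629 to 1076 clones per library, the 95% Wilson interval of a TRBV1 share of 3.50% ran from 2.32 to 5.24%.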

Other observations

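Trbv24 had 1294 UMIs in 794 cells of the expression libraries, while no chain was labelled TRBV24. Of these UMIs, 362 (28.0%) lay in 189 of the 261 cells (72.4%) of 1 clone, the TRBV19 and TRBJ1-1 clone of isotype 1. In CD8 cells Trbv24 had 1.51, 3.09 and 2.78 CPM in the anti-ACBP mice and 14.5, 15.2 and 3.93 CPM in the isotype mice (log2 -2.25 ± 0.58, edgeR adjusted p = 0.144, not called). Trbv22 likewise had 74 of its 155 UMIs in a single clone, the TRBV17 and TRBJ2-4 clone of anti-ACBP 3, which had 84 cells.

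Trbv14 in CD4 cells had 9.30, 9.37 and 5.94 CPM in the anti-ACBP mice and 14.1, 18.0 and 10.3 CPM in the isotype mice (log2 -0.76, edgeR adjusted p = 0.150, not called).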
